A study of Mus musculus with 3 samples.

Results

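The Runx genes encode DNA-binding factors of skeletal, blood and nerve development, Cbfb encodes their common partner, and Trps1 encodes a GATA-type zinc finger repressor of the growth plate and joints. Binding sites of the factors Tbx4 and Hoxc10 were counted at Runx1, Runx2, Runx3, Cbfb and Trps1, 5 of 21887 protein-coding genes. A site was taken as a member's when its summit, the 1 bp point of highest signal, lay inside the gene or between it and the next protein-coding gene on either side, at most 1 Mb away; this stretch is called the domain. The sites come from chromatin immunoprecipitation with sequencing (ChIP-seq) of wild type CD1 mouse hindlimb at embryonic stage e11.5, with 1 sample for each antibody: a homemade anti-Tbx4 antibody and an Abcam antibody against Hoxc10. A further sample with a Santa Cruz antibody against Hoxc10 was not analysed here. The domains held 24 of the 4780 Tbx4 summits and 11 of the 1614 Hoxc10 summits that the authors deposited. There are no replicates, so all counts below are descriptions of 2 lists, without a test. Whole hindlimbs were used, and a site occupied in few cells and a weaker one in many cells cannot be told apart.

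As background, Tbx4 is a T-box factor and Hoxc10 a posterior homeodomain factor, both active in the hindlimb. Runx factors bind a short element with the core ACCACA through their Runt domain, and Cbfb, which does not touch DNA itself, strengthens that binding. Runx2 is required for osteoblasts and acts with Runx3 in the maturation of cartilage cells, Runx1 is best known for definitive blood formation and is also found in early skeletal progenitors, and Runx3 acts in proprioceptive neurons. Trps1 opposes Runx2 in cartilage, and its loss in humans causes a syndrome of the hair, nose and finger bones. Runx genes are typically read from a distal and a proximal promoter.

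Promoter windows of 300 bases around annotated starts (RefSeq, GRCm38.p6, the same build as mm10) were matched for 4 of the 5 genes, 6 windows in all; Trps1 was not among them. They are shown because the first window of each Runx gene shares an element that the others lack. The longest stretch common to the 3 windows was 18 bases, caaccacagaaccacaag, and holds the Runx element AACCACA in tandem. Below are the 30 bases around it, in the direction of transcription, with each AACCACA in capitals:
Runx1 (chr16:92826025-92826054, minus strand): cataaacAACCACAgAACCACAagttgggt
Runx2 (chr17:44814583-44814612, minus strand): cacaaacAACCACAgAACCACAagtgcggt
Runx3 (chr4:135120503-135120532, plus strand): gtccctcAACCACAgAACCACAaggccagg

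The shared stretch began 26 bases past the annotated start in Runx1 and 21 bases past it in Runx2. In Runx3 its offset from the start was -136 bases. Of 32851 windows in the table, 4 held the tandem on either strand: those of the Runx genes and that of Gm16225, a non-coding gene whose window overlaps the Runx3 window from the opposite strand. A single AACCACA or its reverse complement TGTGGTT occurred in 5.27% of all windows. It was found in 3 of the 6 member windows and in neither the proximal windows of Runx1 and Runx3 nor that of Cbfb. The T-box element GGTGTGA (reverse TCACACC, in 3.98% of windows) and the posterior Hox element TTTATGG (reverse CCATAAA, in 2.75%) were in 0 of the 6. These are matches of letters, and no motif was searched at the summits, since no genome sequence was used here.

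No Tbx4 or Hoxc10 summit fell in the 6 promoter windows, and 0 of the 35 member sites lay within 1 kb of an end of their gene. In the whole lists, 12.8% of Tbx4 and 5.02% of Hoxc10 summits lay within 1 kb of an end of some protein-coding gene. The member site closest to an annotated start was a Tbx4 summit 2451 bp downstream of the proximal Runx1 start. Next came a Tbx4 summit 5574 bp upstream of the proximal Runx3 start. By the definition of a domain, every member site lies either in the gene body or in a flank. Inside the genes lay 9 Tbx4 sites, or 37.5% (95% Wilson interval 21.2 to 57.3%), and 4 Hoxc10 sites, or 36.4% (15.2 to 64.6%). These intervals cover the counting of sites only. Of the whole lists, 46.5% and 38.9% lay inside some protein-coding gene. That is a different measure, since for a member site only the member's own body was counted. The gene made up 11.1% of the domain at Trps1, 20.7% at Runx3, 21.6% at Runx1, 59.6% at Runx2 and 63.1% at Cbfb.

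All 5 genes had at least 1 Tbx4 site, against 17.2% of all protein-coding genes. Hoxc10 sites were present at 3 of them, Runx1, Runx2 and Trps1, against 6.83% of all genes, and these 3 also had both factors (5.0% of all genes). Longer domains hold more sites, and 4 of these domains are long: the median over all genes is 67.3 kb, compared with 75 kb for Cbfb, 276 kb for Runx3, 535 kb for Runx2, 1040 kb for Runx1 and 2130 kb for Trps1. Each count was therefore set beside genes with domains of a similar length. Each class includes the member itself, which is thus 1 of the genes counted as reaching its own value. In the classes of Runx3, Runx2, Runx1 and Trps1, 32.2%, 47.9%, 55.2% and 62.3% of genes had a Tbx4 site, and 10.8% did in the class of Cbfb. For Hoxc10 the shares in the same order were 14.5%, 26.7%, 37.9% and 42.2%, and 1.95% for Cbfb. The presence of a Tbx4 site at Runx2, Runx1 or Trps1, and of a Hoxc10 site at Runx1 or Trps1, is therefore common for domains of that length. Of genes with domains of 1600 to 4000 kb, 13 of 204 (6.37%) had as many Tbx4 sites as Trps1 or more, and 3 (1.47%) had as many Hoxc10 sites. The Hoxc10 count of Trps1 depended on the setting: of 7 sites, 4 remained with a limit of 500 kb, 4 with each site given to the nearest gene only and 3 with the sites at or above the list's median score. Among 963 genes with domains of 800 to 1600 kb, 6.44% reached the 7 Tbx4 sites of Runx1 and 7.79% its 3 Hoxc10 sites; 4 and 1 of these had Runx1 as the nearest gene. The 4 Tbx4 sites of Runx3 were reached by 50 of 2233 genes with domains of 200 to 400 kb (2.24%), although 2 of the 4 had Runx3 as the nearest gene, and the 3 of Runx2 by 13.1% of 1324 genes with domains of 400 to 800 kb.

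**Figure D1:**
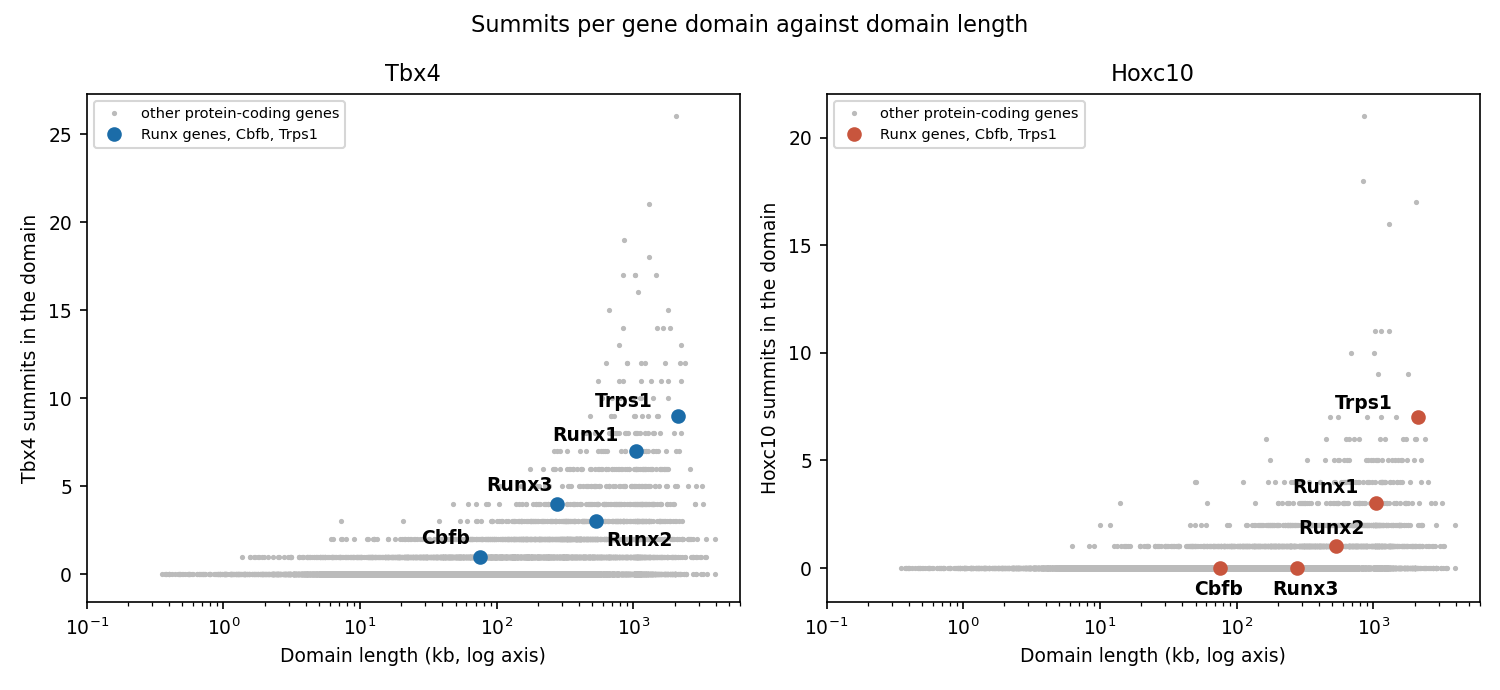
Number of Tbx4 summits (left) and Hoxc10 summits (right) in the domain of each protein-coding gene, against domain length in kb on a log axis; each grey point is a gene and points can lie on top of each other. Trps1, with 9 and 7 summits, and Runx1, with 7 and 3, stand above most genes of similar domain length, and Runx3 and Cbfb are at 0 in the right panel.

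At Runx1 (chromosome 16, 92601466 to 92826074, read from the higher coordinate to the lower), the 7 Tbx4 and 3 Hoxc10 sites fell into a group inside the gene and others far upstream. The score is the authors' MACS2 value on a −log10 scale, used only within its own list, where the Tbx4 median was 3.67 and the Hoxc10 median 7.72. Inside the gene were 3 Tbx4 sites and 0 Hoxc10 sites. Those Tbx4 summits scored 3.67 at 92654078, 2.94 at 92694878 and 9.15 at 92739283. The last lies between the starts of the gene, 86791 bp downstream of the distal and 41954 bp upstream of the proximal one, and is the highest of the 3. Upstream, 67619 bp before the distal start, a Tbx4 summit of 4.46 at 92893693 lay 164 bp from a Hoxc10 summit of 5.69 at 92893857.

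The strongest binding of the Runx1 domain was 446377 bp upstream, in the gap of 757 kb before Setd4, a methyltransferase gene. There 2 Tbx4 and 2 Hoxc10 summits lay within 9.57 kb. A Tbx4 summit at 93272451 scored 34.51, rank 81 of 4780 and the highest of all 24 member sites. It had a Hoxc10 summit of 11.45 at 107 bp, at position 93272344, and another of 9.16 at 560 bp, at 93273011, so that 1 Tbx4 summit had a Hoxc10 summit on either side. A weaker Tbx4 summit of 5.3 stood 8902 bp from this group, at 93263442. These 4 sites are nearer to Setd4 (310446 to 320015 bp) than to Runx1, as is the last Tbx4 site, of 3.67 at 93450091, and the lists do not say which gene they act on.

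Runx2, the osteoblast factor, had 3 Tbx4 sites and 1 Hoxc10 site (chromosome 17, gene from 44495987 to 44814797, read toward lower coordinates). Inside the gene, 249243 bp downstream of its annotated start, a Tbx4 summit of 15.93 at 44565384 and a Hoxc10 summit of 12.24 at 44565592 were 208 bp apart, just over the 200 bp that define a co-bound pair. Past the 3′ end of the gene lay Tbx4 summits of 6.19 at 44432661 and of 30.28 at 44300841. The second ranked 114 of 4780 and stood 20672 bp from Clic5, 195146 bp from Runx2. Both factors thus met near each other inside Runx2, while the highest Tbx4 score of the domain was next to its neighbour.

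On the side of the Runx2 start the domain ends at once, because Supt3, a gene of a transcription coactivator complex, overlaps Runx2 by 37.7 kb and runs on upstream. Sites inside Supt3 therefore do not count for Runx2 under the rule. They are given here because Supt3 spans the sequence upstream of Runx2: a Hoxc10 summit of 10.67 at 45054864, and a Tbx4 summit of 12.42 at 45081674 that was 127 bp from a Hoxc10 summit of 9.91 at 45081547. The Tbx4 summit of this co-bound pair was 266877 bp above the upper end of Runx2. Another protein-coding gene, 4930564C03Rik, lies between Runx2 and these sites, at 44879704 to 44880885. The sites would therefore not count without the overlap either: with domains up to the next gene that does not overlap, Runx2 kept 3 Tbx4 sites and 1 Hoxc10 site.

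Runx3 (chromosome 4, 135120645 to 135177990, read toward higher coordinates) had 4 Tbx4 sites and 0 Hoxc10 sites. Inside the gene a Tbx4 summit of 5.3 at 135146971 lay between the distal and the proximal start, as one did in Runx1. Another, at 135166720 and 14175 bp downstream of the proximal start, scored 18.38 and ranked 262. The other 2 summits, at 134950825 and 135002676, both scored 2.94, the most common score of the Tbx4 list (779 sites), and were nearer to Syf2, a splicing factor gene, than to Runx3. The nearest listed Hoxc10 summit was 1606109 bp away from the gene. No Hoxc10 site in the domain is the usual case for this length, seen in 85.5% of genes with domains of 200 to 400 kb.

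Cbfb, the partner of all Runx proteins, had 1 Tbx4 site and 0 Hoxc10 sites. The gene spans 105170674 to 105217989 of chromosome 8, and its summit, at 105212603, scored 11.3 and ranked 543 of 4780. It lay inside the gene, 41929 bp downstream of the start and 5386 bp before the 3′ end. The nearest Hoxc10 summit was 1298699 bp from the gene. Of genes with domains of 50 to 100 kb, 98.1% had no Hoxc10 site.

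Each Runx gene has a Clic gene, of a family of intracellular chloride channel proteins, as the neighbour past its 3′ end. Between Runx1 and Clic6 (60.2 kb) and between Runx3 and Clic4 (36.0 kb) there were 0 sites of either factor. The 216 kb between Runx2 and Clic5 held 2 Tbx4 sites and 0 Hoxc10 sites. At Runx1 all Hoxc10 sites, and at Runx1 and Runx3 all Tbx4 sites outside the gene, were on the upstream side. That side is also the longer one, with 757 kb at Runx1 and 183 kb at Runx3, and the part of length was not tested. Runx2 has an upstream flank of 0 kb under the rule, so its sides cannot be compared.

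Trps1, the repressor, had the most sites of the 5 genes: 9 for Tbx4 and 7 for Hoxc10 (chromosome 15, gene from 50654757 to 50890631). Sites were uneven along its domain. The megabase below the gene, toward Csmd3, held a single Tbx4 site, of 2.94 at 50517760. The 236 kb of the gene held 2 Tbx4 and 3 Hoxc10 sites, and the 896 kb above it, up to the translation factor gene Eif3h, held 6 and 4. Between the limit of 1 Mb and Csmd3 lay a further 862 kb with 0 sites of both lists.

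Near the lower end of Trps1 both factors met at 2 places. At 50666133 a Hoxc10 summit of 13.86, the highest Hoxc10 score at the 5 genes, was 34 bp from a Tbx4 summit of 6.19 at 50666167. Then 32.0 kb further a Tbx4 summit of 10.21 at 50698479 was 312 bp from a Hoxc10 summit of 3.83 at 50698167. The order of the scores within the lists differed between these places: the first ranked 337 of 1614 for Hoxc10 and 1240 for Tbx4, and the second 1348 and 641. Toward the upper end were Hoxc10 sites alone, of 3.26 at 50884014 inside the gene and of 7.72 at 50925521, 34890 bp outside it.

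Further above Trps1 a group of 3 Tbx4 summits within 41.9 kb had no Hoxc10 partner. They scored 2.94 at 51094404, 20.91 at 51130576 and 6.19 at 51136295, and the second, rank 216, was the highest Tbx4 site of the domain. Past a lone Tbx4 summit of 2.94 at 51331273, a group of 5 summits spanned 92.0 kb. In it a Tbx4 summit of 11.3 at 51668548 and a Hoxc10 summit of 6.34 at 51668465 were 83 bp apart. The others were a Tbx4 summit of 8.12 at 51629493 and Hoxc10 summits of 5.05 at 51679261 and 9.91 at 51721473. All 5 are nearer to Eif3h, at 65090 to 157070 bp from it, than to Trps1, so that 7 Tbx4 and 4 Hoxc10 sites have Trps1 as the nearest gene.

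**Figure D2:**
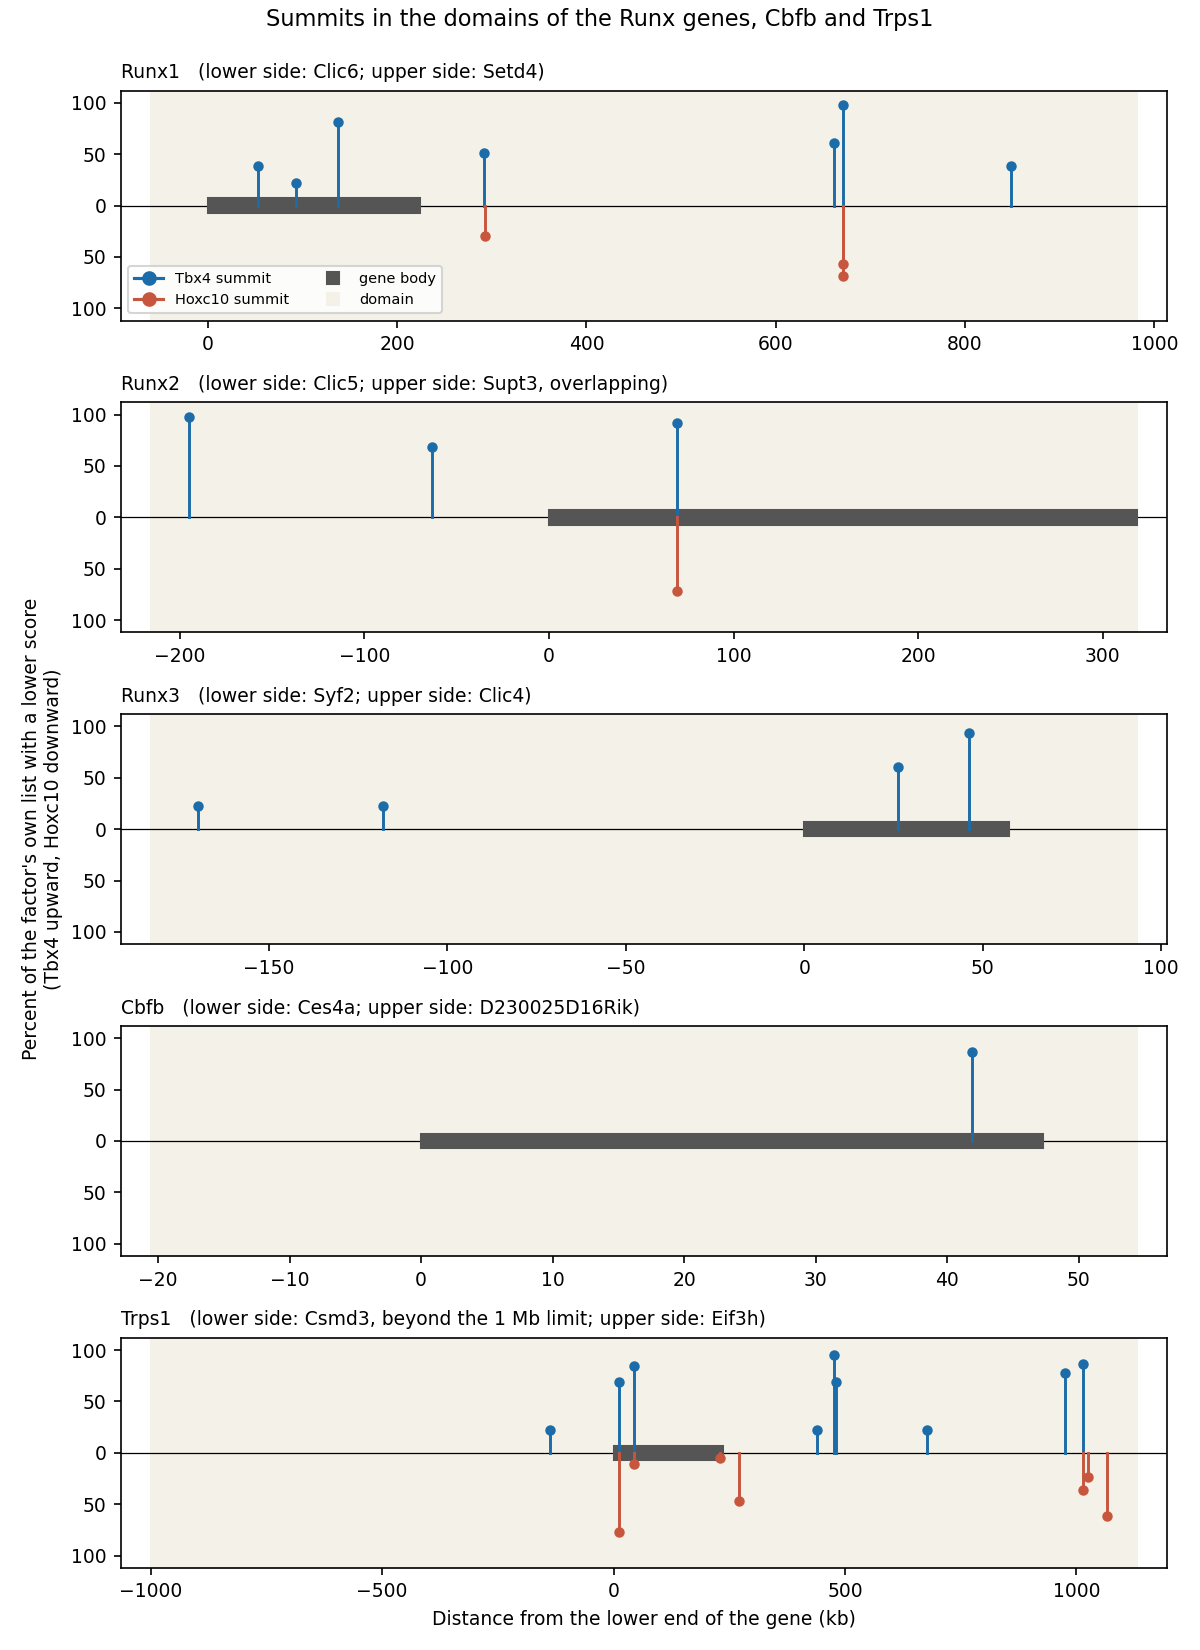
Summits along the 5 domains, by distance in kb from the lower-coordinate end of the gene; the height is the percent of the factor's own list with a lower score, with Tbx4 drawn upward and Hoxc10 downward. Paired lines mark the places where both factors met at Runx1, Runx2 and Trps1, and the panels of Runx3 and Cbfb have no downward lines.

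Co-bound pairs, with summits at most 200 bp apart, were present at 2 of the 5 genes, with 2 pairs each at Runx1 and Trps1, against 2.65% of all genes with at least 1 pair and 0.548% with at least 2. In the length classes of Runx1 and Trps1, 17.4% and 21.1% of genes had at least 1 pair. The share with at least 2 pairs was not computed for these classes, and the 0.548% is not matched for domain length. The 4 pairs were 34, 83, 107 and 164 bp apart, and the median over all 519 pairs was 64 bp. The distances just inside and just outside the limit were 164 bp at Runx1 and 208 bp at Runx2. Of the Hoxc10 member sites 4 of 11 were paired, 36.4% (95% Wilson interval 15.2 to 64.6%), beside 32.1% of the whole list. For Tbx4 it was 4 of 24, 16.7% (6.68 to 35.9%), beside 10.9%. Both intervals include the value of the whole list, but they cover the counting of sites only and are not a test. The same 4 pairs enter both.

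Counting to 1000 bp added 3 pairs, at 208, 312 and 560 bp. No site of the other factor lay within 10 kb of 17 Tbx4 and 4 Hoxc10 sites. The same share was not computed for the whole lists, so these 2 counts do not set the 5 genes apart. The closeness in position did not go with a fixed level of score: the paired Tbx4 summits scored 4.46, 34.51, 6.19 and 11.3, and their Hoxc10 partners 5.69, 11.45, 13.86 and 6.34.

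**Figure D3:**
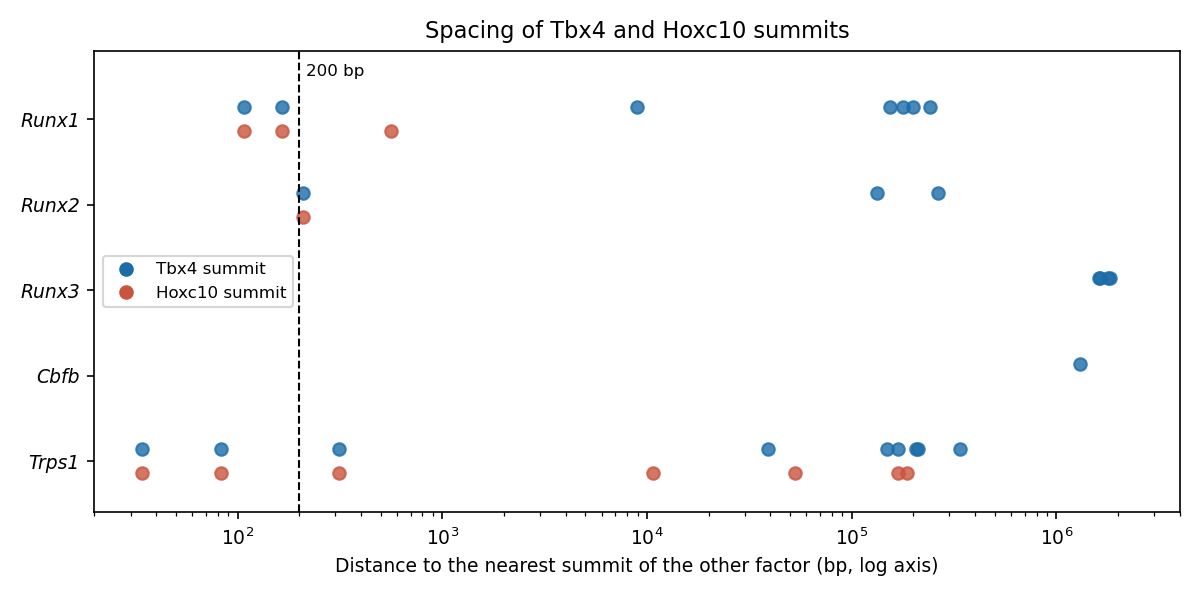
Distance in bp, on a log axis, from each member summit to the nearest summit of the other factor, by gene; the dashed line marks 200 bp. Runx1 and Trps1 have summits left of the line, 1 Tbx4 and 1 Hoxc10 summit of Runx2 sit just right of it at 208 bp, and those of Runx3 and Cbfb are over a megabase from any Hoxc10 summit.

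The scores of the 24 Tbx4 sites ran from 2.94 to 34.51 with a median of 6.19. Above the list's own median of 3.67 were 16 of them, while 48.9% of the list was above it, and 5 were in its upper 10%. The Hoxc10 sites ran from 3.26 to 13.86 with a median of 7.72, equal to that of the list, and 0 of 11 were in the upper 10%. The highest scores of the whole lists were 317.1 and 237.9.

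The genes with counts most like those of Trps1, by the sum of the differences in Tbx4 sites, Hoxc10 sites and pairs, were Psmd7 (9, 6 and 2), Elac2 (9, 7 and 4), Cdh2 (7, 6 and 2), Mecom (8, 5 and 2) and Msrb3 (7, 6 and 2). The likeness rests on 3 counts in 1 sample of each factor and says nothing of a shared function. The domain of Cdh2, a cadherin of mesenchyme, was 2050 kb long and so also similar in length; those of the other 4 were 447 to 906 kb.

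Other genes linked to Runx factors or Trps1 were counted from 3 lists. Of 30 partners and regulators of Runx factors, 15 (50%) had Tbx4 sites, 9 (30%) Hoxc10 sites, 8 both and 14 neither. Their median domain was 160 kb, longer than the 67.3 kb of all genes, and the part of length in the distance from 17.2% and 6.83% was not tested. The corepressor Tle3, which binds the C-terminal motif of Runx proteins, had 17 Tbx4 and 2 Hoxc10 sites, and Zfp521, a zinc finger repressor of Runx2 activity, had 11 and 2. Runx1t1, a corepressor known from its fusion to Runx1 in leukaemia, had 7 and 5 with 3 co-bound pairs, and Ets1, which binds DNA together with Runx1, had 8 and 1. The domains of Tle3, Zfp521, Runx1t1 and Ets1 were 1030, 1600, 1520 and 1210 kb long, far above the median of the list. Msx2 (632 kb) had 4 and 1, and Twist2 (369 kb), which restrains Runx2, had 3 and 2. Its relative Twist1 had 0 Tbx4 and 2 Hoxc10 sites.

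Of 24 skeletal genes listed for a link to Runx factors or Trps1, 10 (41.7%) had Tbx4 sites and 11 (45.8%) Hoxc10 sites. The shares of all genes were 17.2% and 6.83%. Of the 24, 9 had both and 12 neither. The median domain of this list was 164 kb, against 67.3 kb over all genes, and the part of length was not tested. The cartilage factor genes, with domains of 1230 to 1790 kb, had the most sites: Sox9 had 17 and 7, Sox5 11 and 3, and Sox6 6 and 2. The signal gene Wnt5a had 5 and 2, and Fgf18, Gli3 and Pthlh had 4 and 1 each. Sites were also present at Vegfa (2 and 1), Tnfrsf11b (1 and 1), Pth1r (1 and 0), Ccnd1 (0 and 1) and Ihh (0 and 1). The 12 genes with 0 sites of either factor were Acan, Alpl, Bglap, Col10a1, Col1a1, Col2a1, Gdf5, Ibsp, Mmp13, Sp7, Spp1 and Tnfsf11. Their domains ran from 7.11 to 403 kb. Most were longer than the 67.3 kb median of all genes, and most were below the 164 kb median of this list.

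Among 9 genes with GATA zinc fingers, the family that Trps1 belongs to, 3 had Tbx4 sites and 2 Hoxc10 sites, 33.3% and 22.2%, beside 17.2% and 6.83% of all genes; their median domain was 117 kb. Gata4 had 1 and 1, forming a pair, with a Tbx4 score of 22.2. Gata3 had 1 and 1 with low scores of 2.94 and 2.72, and Gata6 had 2 and 0. None of these 9 had a count near the 9 and 7 of Trps1. Their domains were all shorter than its 2130 kb, the longest being 1060 kb at Gata3, and the part of length was not tested.

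**Figure D4:**
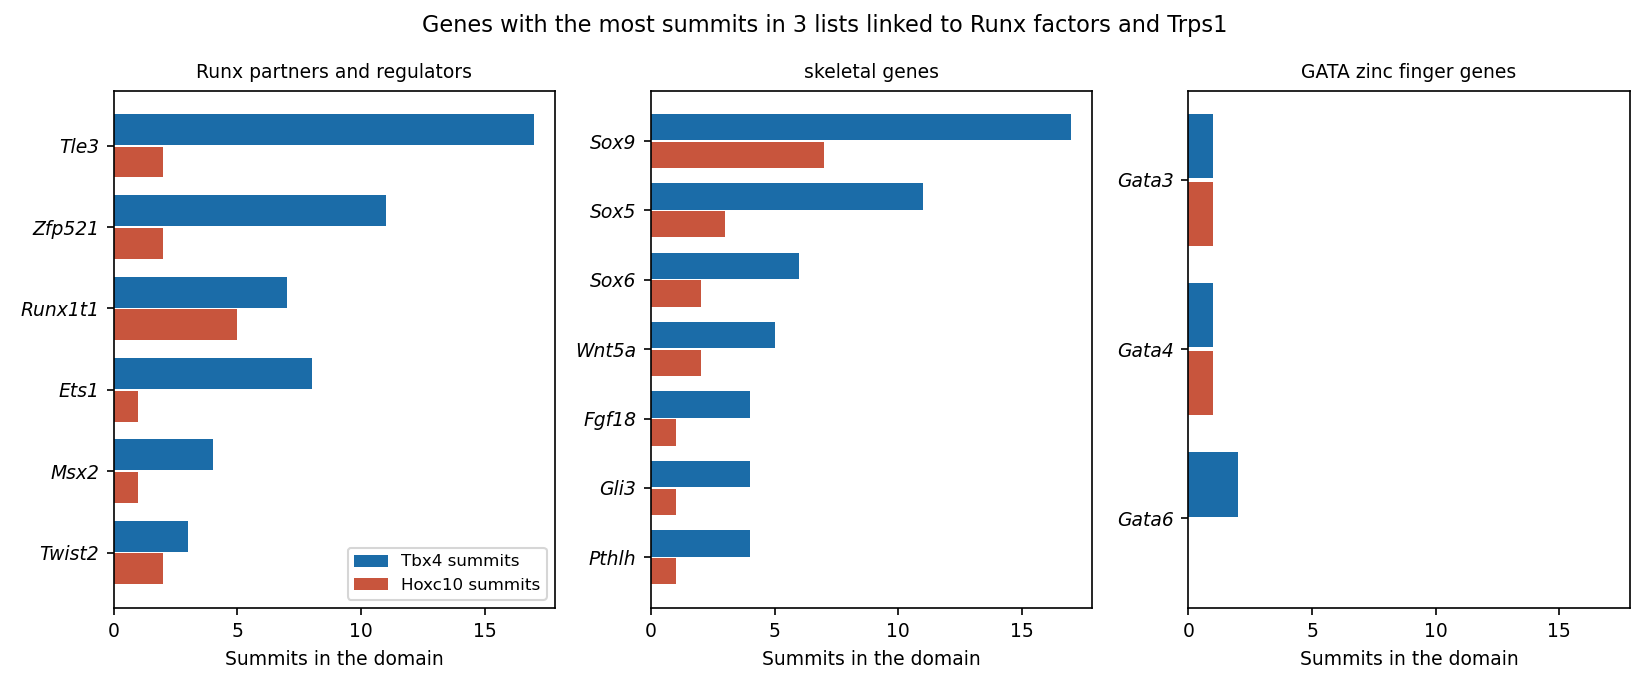
Tbx4 and Hoxc10 summits in the domains of the genes with the most summits in each of 3 lists (bars start at 0; genes with equal totals at the last place are all drawn). Tle3 and Sox9 lead with 17 Tbx4 summits each, and the GATA genes reach at most 2 of either factor.

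Markers of blood, where Runx1 acts, and of sensory neurons, where Runx3 acts, were counted, with those of Schwann cells and limb mesenchyme. The shares of all genes with Tbx4 and Hoxc10 sites were 17.2% and 6.83%, and the lists differ in length, with median domains of 57 kb for blood, 936 kb for sensory neuron, 68 kb for Schwann cell and 216 kb for limb mesenchyme markers. Of 8 blood markers 3 had Tbx4 sites and 1 had a Hoxc10 site, with 2 and 1 at Ptprc and scores of at most 4.46. Of 6 sensory neuron markers 2 had sites of each factor, Isl1 with 4 and 2 and Etv1 with 1 and 2; Isl1 is also a gene of the early hindlimb field. The 4 Schwann cell markers had none. Limb mesenchyme markers had Tbx4 sites at 7 of 9 and Hoxc10 sites at 4, with 5 and 3 at Prrx1 and 6 and 3 at Tbx4. Sites near a marker do not measure its expression, so the cell make-up of the samples was not tested.

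The lists hold a selection of the peaks first called. Peak numbers rise with position on all 21 chromosomes of both lists. The 9 Tbx4 sites of Trps1 fall within 29 consecutive numbers and the 7 of Runx1 within 10, and the Hoxc10 sites within 9 and 3. Called peaks that are not listed thus lay between the Tbx4 sites of both genes and the Hoxc10 sites of Trps1, and a count of 0 does not show that a factor was absent.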

How the data were processed

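The deposited files list ChIP-seq summits of 1 bp on mm10, 1 file for Tbx4 and 1 for Hoxc10 (Abcam). Per the submitters' processing notes, Bowtie2 2.2.6, MACS2 2.1.1.20160309 and HOMER were used. The score that the authors deposited is a −log10 value of MACS2; whether it stands for a p or a q is not stated in the labels or the files, and the control library, any pooling and the way summits were selected are not given there either. The name of the Hoxc10 list may mean that only sites within 200 bp of Santa Cruz peaks were kept. The files hold no read counts, so the depth is unknown.

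Genes came from RefSeq's GRCm38.p6 table, 21887 protein-coding genes on the primary chromosomes, and starts and strands from its promoter windows; exons and introns were not told apart. A domain ran from the gene to the next protein-coding gene, at most 1 Mb, and ended at the gene where a neighbour overlapped it. A site between 2 genes counts for both. Counts were made with Python 3.11.15 and pandas 2.3.3 and checked on simulated sites. All 87 listed genes matched by symbol. The genes named are the 5 members, their neighbours, up to 6 genes of each list by sites, ties included, and the 5 genes with counts most like Trps1; others were named after their values were seen. The members, lists and alternatives were chosen with earlier results of these data known.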

Additional observations from a re-analysis of the deposited data

How the results depend on the processing

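The totals of 24 Tbx4 sites, 11 Hoxc10 sites and 4 pairs depended on the reach of the domain. With a limit of 100 kb they were 11, 6 and 2, and with only 5 kb added on either side of the gene 9, 4 and 1. When each site was given to its nearest gene only, there were 6 Hoxc10 sites and 2 pairs, and with the sites at or above the median score of each list also 6 and 2. Pairs numbered 1 within 50 bp and 7 within 1000 bp. Single genes moved too: Trps1 had 4 Hoxc10 sites and 1 pair with a limit of 500 kb, in place of 7 and 2. The other 9 of 21 recomputed totals stayed within 1.5 times of the value given, among them the totals over the 5 genes with a limit of 500 kb and those with domains up to the next gene that does not overlap, an alternative chosen after seeing the data. These changes follow from fewer or more sites being counted. No paired analysis was possible because each factor has 1 sample.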

Other observations

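The domains held 24 non-coding genes, and 4 of them held a Tbx4 summit: Gm30588 and 1700029J03Rik upstream of Runx1, and Gm19303 and Gm34562 above Trps1. Hoxc10 summits were in 0 of the 24. The shares over all non-coding genes were not computed, so these counts do not set the domains apart. The microRNA gene Mir1907 lies inside Trps1, at 50889025 to 50889114 of chromosome 15 and 5011 bp from the nearest site, a Hoxc10 summit. Mir802, upstream of Runx1 at 93369720 to 93369816 of chromosome 16, was 80275 bp from the nearest site. Runx2os3, a non-coding gene within Runx2, was 2673 bp from the Tbx4 summit at 44565384.

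Sites per length ordered the genes differently from sites per gene. Tbx4 sites per Mb of domain were 14.5 at Runx3, 13.3 at Cbfb, 6.72 at Runx1, 5.61 at Runx2 and 4.22 at Trps1, and the value for Cbfb rests on 1 site. For Hoxc10 they were 3.28 at Trps1, 2.88 at Runx1 and 1.87 at Runx2, the last on 1 site.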
